A study of Mus musculus with 12 samples.

Results

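The genes described here are 10 genes of the DNA damage response: the kinases *Atm*, *Atr*, *Chek1*, and *Chek2*, the transcription factor gene *Trp53*, its inhibitor *Mdm2*, and the p53 targets *Bax*, *Bbc3*, *Pmaip1*, and *Ccng1*. They were taken as a pathway out of 55291 genes counted. The set was chosen by the normalized counts of *Chek2*, which had been seen to be lower in *Asxl1*Y588XTg cells than in WT cells, and by known function for the others, and all 10 passed the filter on low counts with 15825 genes in all. RNA was measured in LK cells, the lineage-negative, cKit-positive bone marrow fraction in which stem cells and myeloid progenitors are found. One library was made from each of 12 C57BL/6 mice at 12 months of age, with 3 mice of each genotype, and the LK cells were selected with magnetic beads rather than by flow cytometry. The genotypes were WT, *Kdm6b*Δ/+ (1 allele of the histone demethylase gene *Kdm6b* deleted), *Asxl1*Y588XTg (a transgene for truncated ASXL1, in mice described as preleukemic at this age), and *Asxl1*Y588XTg *Kdm6b*Δ/+, which carry both. The deletion was made by Cre from the *Mx1Cre* transgene, switched on by injected pI:pC, an RNA mimic of viral infection that triggers interferon. Whether the WT and *Asxl1*Y588XTg mice of these libraries carried *Mx1Cre* or received pI:pC, and which promoter drives the transgene, are not given in the sources used here.

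When DNA is broken or replication stalls, the kinases ATM and ATR are activated, ATM mainly at double-strand breaks and ATR at exposed single-stranded DNA. ATM activates CHK2 and ATR activates CHK1, and these checkpoint kinases act on CDC25 phosphatases and on p53 to hold the cell cycle. p53 is kept low by the ubiquitin ligase MDM2, and once stabilized it raises genes of arrest and of cell death, including *Mdm2* itself. In bone marrow this pathway sets how stem and progenitor cells respond to irradiation and to replication stress. Much of it works through phosphorylation and protein stability, which mRNA counts do not measure.

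The libraries held 14451522 to 23482563 counted reads. The genotype labels were checked on *Kdm6b*, which had 1346 to 1909 normalized counts in the 6 libraries with the deletion and 1869 to 2372 in the others, so each deletion group lay below its comparison group while 1 WT library fell within the range of the *Asxl1*Y588XTg *Kdm6b*Δ/+ libraries. Counts of *Asxl1* ran from 2545 to 3244 with overlap between all genotypes and do not check the transgene. *Kit* was well expressed in every library, at 5764 to 7759 normalized counts, and none of the 8 LK identity markers was at 0 in any genotype. Neutrophil transcripts were abundant as well. The summed normalized counts of 9 neutrophil markers ran from 859520 to 1321412 per library, and those of the 8 LK markers from 21822 to 26072. The paper's methods state a routinely high purity for cells selected this way, and the purity of these libraries was not tested here. Y-linked transcripts were present in 0 of 3 WT, 2 of 3 *Kdm6b*Δ/+, 1 of 3 *Asxl1*Y588XTg, and 3 of 3 *Asxl1*Y588XTg *Kdm6b*Δ/+ libraries, so sex was not balanced between the genotypes.

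*Chek2*, the gene of the kinase CHK2 (ENSMUSG00000029521.7), lies on the plus strand of mouse chromosome 5 at 110839979 to 110874145 (mm10, GENCODE vM21). It starts 201 bases from *Hscb*, an iron-sulfur cluster co-chaperone gene on the opposite strand (110829070 to 110839777), and the sequence between them is the start region of both genes. This intergenic sequence (RefSeq, GRCm38.p6, chr5:110839778-110839978, plus strand, 53.7% G and C) is shown because *Chek2* and *Hscb* share it and had different values. Capitals mark ATTGG, the reverse complement of the CCAAT box bound by the factor NF-Y.
Chek2-Hscb: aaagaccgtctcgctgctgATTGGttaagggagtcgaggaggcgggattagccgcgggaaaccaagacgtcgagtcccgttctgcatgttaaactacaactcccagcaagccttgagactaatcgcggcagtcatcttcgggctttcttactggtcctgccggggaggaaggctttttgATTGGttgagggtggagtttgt
The CCAAT box occurred 2 times, at positions 20 and 180 of the printed sequence, counted from its 5′ end. Both strands were searched, and 29.5% of 32851 mouse promoter windows of the same length and offset held at least 1 match. The GC box GGGCGG, found in 30.7% of the windows, and the p53 half-site, found in 5.62%, had 0 matches here, and none of the matches overlapped.

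In WT libraries *Chek2* had 573, 610, and 704 normalized counts, and in *Kdm6b*Δ/+ libraries it had 638, 702, and 697. In *Asxl1*Y588XTg it had 396, 365, and 423, and in *Asxl1*Y588XTg *Kdm6b*Δ/+ it had 370, 405, and 336. All 6 transgenic libraries thus lay below all 6 others, with no overlap and a gap from 423 to 573. Behind these values were 326 to 708 reads per library. In bulk RNA, fewer cells of a type that expresses *Chek2* and less *Chek2* RNA per cell cannot be told apart.

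The comparison of *Asxl1*Y588XTg with WT is the one from which *Chek2* was chosen, so its values are a description. There the log2 fold change of *Chek2* was −0.67 ± 0.12 (SE, n = 3 mice per genotype), a level 37.2% lower. *Chek2* was the only one of the 10 genes called in this comparison, beside 0.0316% of all genes tested that were called lower, and nothing is read from that count. With 1 library left out, the call was lost without WT replicate 3 and without any of the *Asxl1*Y588XTg libraries, with log2 fold changes from −0.72 to −0.58. Calls required more than 1.5-fold and an adjusted p below 0.05.

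The comparison of *Asxl1*Y588XTg *Kdm6b*Δ/+ with *Kdm6b*Δ/+ asks for the effect of the same transgene among mice that have 1 *Kdm6b* allele deleted, and it shares no library with the first. *Chek2* fell in it by 0.87 ± 0.10 on the log2 scale, with a 95% interval of −1.09 to −0.66. This is 45.4% less *Chek2* RNA than in *Kdm6b*Δ/+, and at least 36.5% less at the near end of the interval. The adjusted p was 0.00495 over 15825 genes (edgeR's quasi-likelihood test), and only 2 genes had a smaller p-value in this comparison. *Chek2* was 1 of 10 pathway genes called lower, where 0.0379% of all genes tested, 6 genes, were called lower. Among the 5 and the 6 genes called lower in the 2 transgene comparisons, *Chek2* and *Rps4l*, a ribosomal protein-like gene named here after its values were seen, were shared, which is 40.0% of the first set and 33.3% of the second. These sets are small and ran from 2 to 42 and from 1 to 30 genes under the alternatives. Among the 250 and the 9 genes called higher, 4 were shared, which is 1.6% of the first set and 44.4% of the second. *Rps4l* had 24.1 to 51.6 normalized counts in the 6 transgenic libraries and 122 to 184 in the others.

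**Figure D1:**
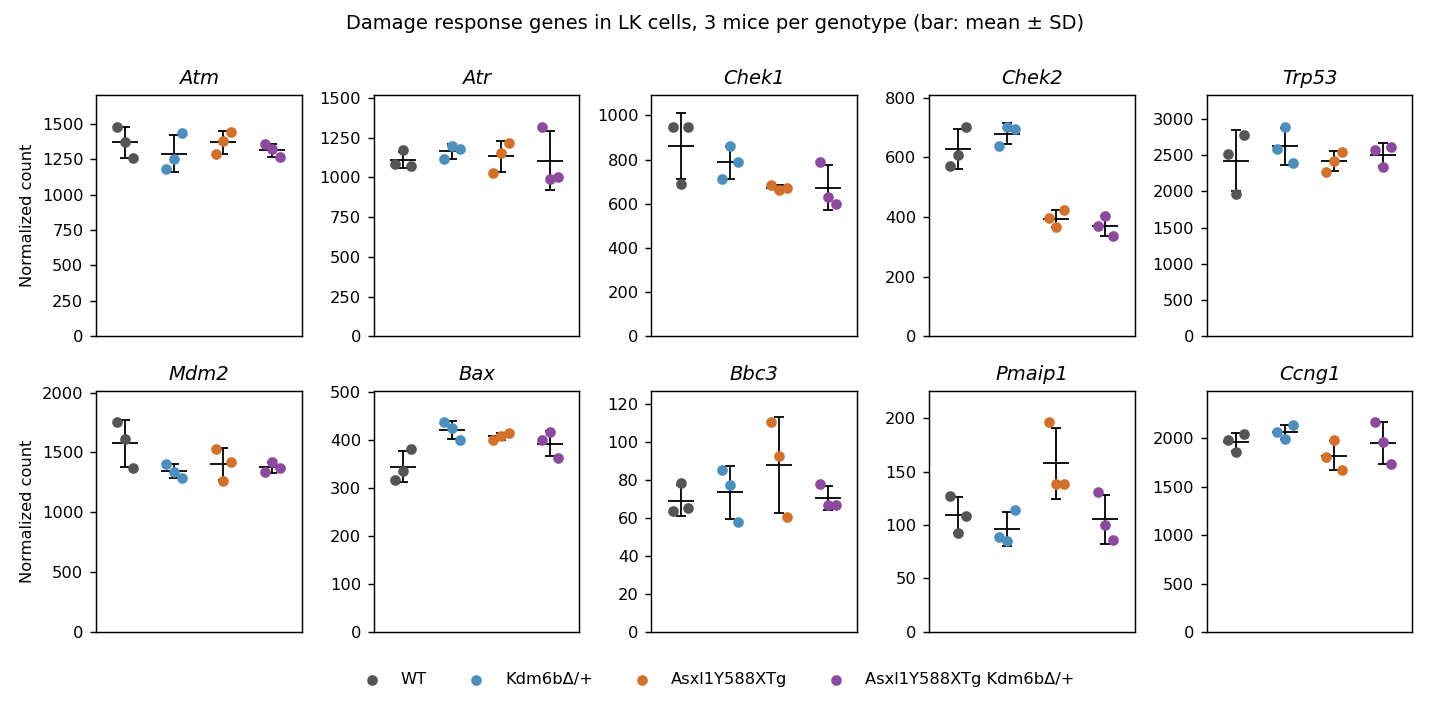
Normalized counts (y axes, from 0) of the 10 damage response genes in each of 12 libraries, in columns by genotype, with bars for the mean ± SD of 3 mice. The 6 transgenic libraries lie at 336 to 423 for *Chek2*, below the 6 others at 573 to 704, and the ranges of these 2 sets of libraries overlap for each of the other 9 genes.

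*Chek2* was also read separately in libraries with and without Y-linked transcripts, as a description. Among libraries with Y-linked transcripts, *Chek2* ran from 336 to 405 normalized counts in 4 transgenic libraries and was 638 and 697 in 2 others. Among those without them it was 396 and 423 in 2 transgenic libraries and ran from 573 to 704 in 4 others. These 2 transgenic libraries were *Asxl1*Y588XTg and the 4 others included all 3 WT libraries. Nearly all of this set thus comes from the comparison that chose *Chek2*, and its direction there was known beforehand. When only the 5 libraries with Y-linked transcripts of the independent comparison were fitted, *Chek2* fell by 0.85 on the log2 scale (adjusted p = 0.0136, edgeR). This restriction, added after the data were seen, is the same as leaving out the second *Kdm6b*Δ/+ library.

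Deletion of *Kdm6b* left *Chek2* close to its level on either background, with values that are also descriptions because they use libraries of the choosing comparison. The log2 fold change was 0.11 ± 0.12 for *Kdm6b*Δ/+ against WT, with an interval from −0.14 to 0.36, and −0.08 ± 0.11 for *Asxl1*Y588XTg *Kdm6b*Δ/+ against *Asxl1*Y588XTg, with an interval from −0.31 to 0.15. Against WT, the mice with both alleles had a value of −0.75 ± 0.12. The difference between the effects of the deletion on the 2 backgrounds, which is also the difference between the effects of the transgene, was −0.21 ± 0.15, with an interval from −0.53 to 0.12. The 3 *Asxl1*Y588XTg and the 3 *Asxl1*Y588XTg *Kdm6b*Δ/+ libraries overlapped in their *Chek2* counts.

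Over all genes tested, 70 genes (0.442%) had all 6 transgenic libraries below all 6 others, and *Chek2* was 1 of them. The 12 libraries include those from which *Chek2* was chosen, so its place in this set and its spread are descriptions. Its highest library was 2.09 times its lowest, and its coefficient of variation over the 12 libraries was 28.6%, against 6.81% for *Atm*, the steadiest of the 10 genes. Among the 10 genes, *Pmaip1* and *Bbc3*, which have the fewest reads, had coefficients of variation of 27.2% and 20.2%. For both, the 6 transgenic libraries overlapped with the 6 others.

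The 12 other tested genes within 500 kb of *Chek2* were read as its neighbours. None was called in either transgene comparison, and their median log2 fold change was 0.03 in *Asxl1*Y588XTg against WT and 0.02 in *Asxl1*Y588XTg *Kdm6b*Δ/+ against *Kdm6b*Δ/+. At an unadjusted p under 0.05 there were 1 and 2 of the 12, beside 9.35% and 12.2% of all genes tested. *Hscb* had 123, 173, and 209 normalized counts in WT and 256, 229, and 204 in *Asxl1*Y588XTg. It had 124, 190, and 175 in *Kdm6b*Δ/+ and 173, 169, and 188 in *Asxl1*Y588XTg *Kdm6b*Δ/+. Its differences, 0.45 ± 0.22 and 0.11 ± 0.17, did not pass the test and were in the direction opposite to *Chek2*.

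*Ttc28*, which follows *Chek2* at a distance of 5.66 kb, had values of −0.13 ± 0.17 and 0.04 ± 0.17. *Ulk1*, a kinase gene of autophagy at −29.9 kb, had 541 to 606 normalized counts in the 6 transgenic libraries and 614 to 760.5 in the others, and was the only neighbour without overlap between these sets. Its values of −0.26 ± 0.10 and −0.24 ± 0.10 were smaller than those of *Chek2* and did not pass the test (adjusted p = 0.376 in the second comparison, edgeR).

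**Figure D2:**
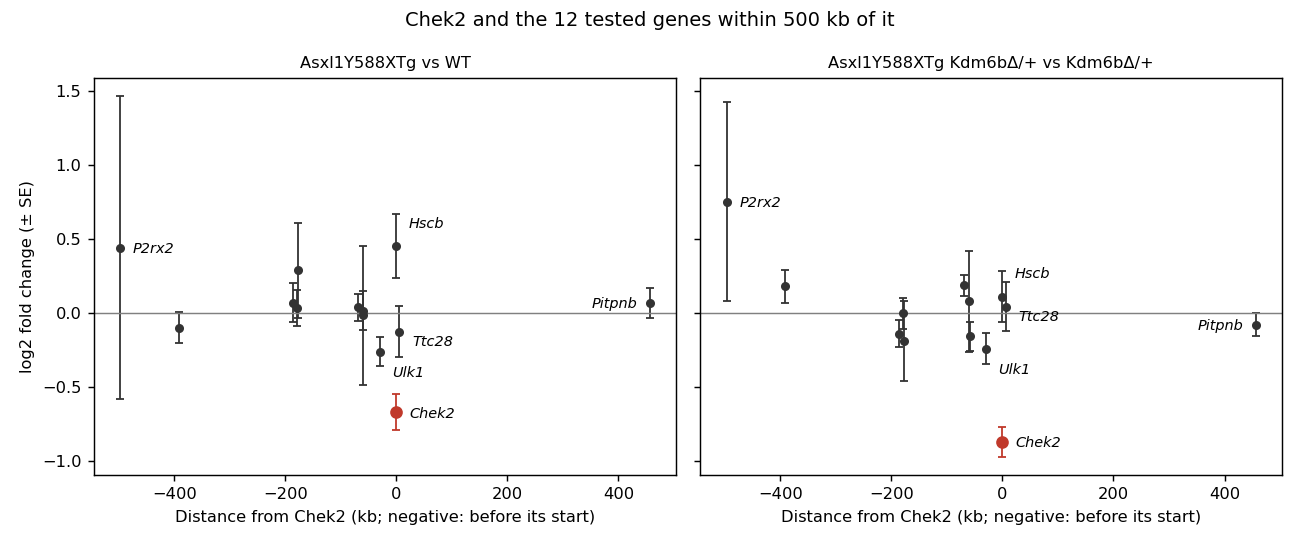
Log2 fold change ± SE (y axis) of *Chek2* (red) and the 12 tested genes within 500 kb, against distance from *Chek2* in kb (x axis), in the 2 transgene comparisons. *Chek2* lies at −0.67 and −0.87, while its neighbours run from −0.26 to 0.45 in the first comparison and from −0.24 to 0.75 in the second, where the highest is *P2rx2*, a gene with at most 18 reads in a library.

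Genes whose levels followed those of *Chek2* most closely were ranked by Pearson r of log2 CPM over the 12 libraries, among 9892 genes whose mean normalized count was 100 or more. The 5 highest were *Ate1* (r = 0.96), an arginyltransferase gene, *Impa1* (0.93), which encodes inositol monophosphatase, *Cdca7* (0.92), a cell division cycle-associated gene, *Ercc6l* (0.91), which encodes a helicase of mitosis, and *Rpa3* (0.91), the smallest subunit of the single-strand DNA-binding complex RPA. These values are descriptions. The points share libraries and depth and fall into 2 sets, and within genotypes r was lower, from 0.26 for *Cdca7* to 0.73 for *Rpa3*. *Ate1* ran from 1282 to 1390 normalized counts in transgenic libraries and from 1456 to 1605 in the others, and *Rpa3* from 372 to 438 and from 455 to 516. The gap between the 2 sets was thus narrower, relative to the level, than for *Chek2*. For *Ercc6l* the sets overlapped.

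**Figure D3:**
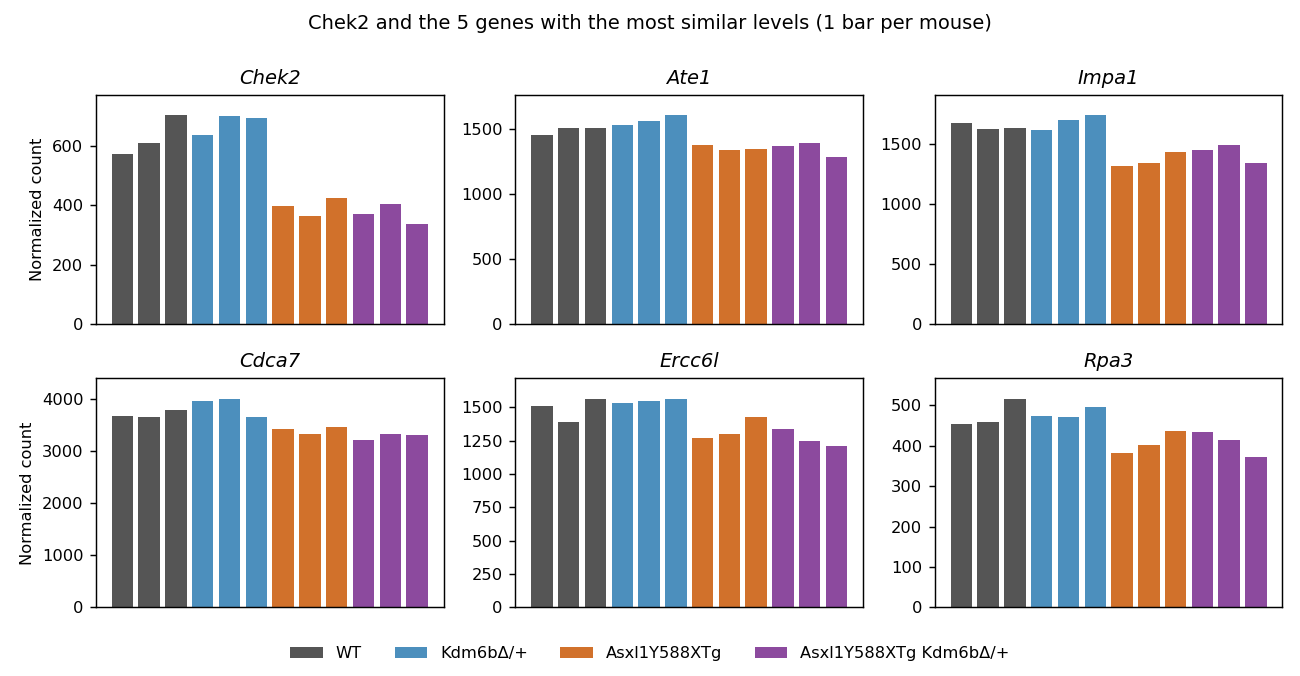
Normalized counts (y axes, from 0) of *Chek2* and the 5 genes most like it, with 1 bar per mouse in the order WT, *Kdm6b*Δ/+, *Asxl1*Y588XTg, and *Asxl1*Y588XTg *Kdm6b*Δ/+. All 6 genes are lower toward the right, and *Chek2* has the largest relative step, from 573 to 704 down to 336 to 423.

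*Chek1*, which encodes the kinase CHK1 downstream of ATR (chromosome 9, 36708482 to 36727065, minus strand), had 950, 688, and 949 normalized counts in WT and 684, 664, and 673 in *Asxl1*Y588XTg. It had 714, 861, and 787 in *Kdm6b*Δ/+ and 790, 631, and 597 in *Asxl1*Y588XTg *Kdm6b*Δ/+. The *Asxl1*Y588XTg libraries lay below the WT libraries, the nearest by 4 normalized counts, and the other 2 genotypes overlapped. The smallest p-value that a permutation of 3 against 3 libraries can give is 0.1. Separation of 2 genotypes, for this and later genes and sums, is therefore a description. The difference in the independent comparison was −0.22 ± 0.11, with an interval from −0.47 to 0.02 (adjusted p = 0.449, edgeR), and did not pass the test. The value of −0.36 ± 0.13 in *Asxl1*Y588XTg against WT is a description.

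The upstream kinase genes had nearly the same level in each genotype. *Atm* (chromosome 9, 53439149 to 53536740, minus strand) averaged 1369 ± 110 normalized counts in WT, 1287 ± 130 in *Kdm6b*Δ/+, 1369 ± 80.8 in *Asxl1*Y588XTg, and 1314 ± 46.0 in *Asxl1*Y588XTg *Kdm6b*Δ/+ (SD, n = 3 each). *Atr* (chromosome 9, 95857597 to 95951781, plus strand) averaged 1110 ± 51.7, 1162 ± 44.7, 1133 ± 97.1, and 1104 ± 186 in the same order. In the independent comparison the intervals were −0.15 to 0.21 for *Atm* and −0.30 to 0.16 for *Atr*. A pair of antisense genes overlap the ends of *Atr*, and because the counting strand is not stated their reads could not be told apart, but they held at most 21.8 normalized counts.

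*Trp53*, the gene of p53 (chromosome 11, 69580359 to 69591873, plus strand), averaged 2424 ± 417 normalized counts in WT, 2621 ± 257 in *Kdm6b*Δ/+, 2416 ± 138 in *Asxl1*Y588XTg, and 2509 ± 153 in *Asxl1*Y588XTg *Kdm6b*Δ/+. Its value in the independent comparison was −0.06 ± 0.08, with an interval from −0.24 to 0.12. *Mdm2*, which encodes the ligase that degrades p53 and is itself a p53 target (chromosome 10, 117688875 to 117710758, minus strand), had 1753, 1616, and 1366 in WT and 1406, 1340, and 1286 in *Kdm6b*Δ/+. It averaged 1405 ± 135 in *Asxl1*Y588XTg and 1374 ± 42.7 in *Asxl1*Y588XTg *Kdm6b*Δ/+. The difference of −0.23 ± 0.10 between *Kdm6b*Δ/+ and WT had an unadjusted p of 0.0421 and an adjusted p close to 1 (edgeR).

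*Bax*, whose product permeabilizes the mitochondrial membrane in apoptosis (chromosome 7, 45461697 to 45466898, minus strand), had 317, 336, and 381 normalized counts in WT and 437, 424, and 401 in *Kdm6b*Δ/+. It had 400, 409, and 414 in *Asxl1*Y588XTg and 399, 416, and 363 in *Asxl1*Y588XTg *Kdm6b*Δ/+. Both the *Kdm6b*Δ/+ and the *Asxl1*Y588XTg libraries lay above the WT libraries, and the mice with both alleles overlapped with all 3. These separations of 3 against 3 libraries are descriptions. The difference between the 2 effects of the deletion was −0.34 ± 0.15 (unadjusted p = 0.0363, adjusted p = 0.700, edgeR). A read-through gene, Gm45808, overlaps *Bax* on its strand and was listed at 0 in every library, so the assignment of reads at this locus is uncertain.

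*Pmaip1*, which encodes the BH3-only protein NOXA, had 127, 92.9, and 108 normalized counts in WT and 196, 138, and 139 in *Asxl1*Y588XTg. It had 89.2, 85.3, and 114 in *Kdm6b*Δ/+ and 131, 99.99, and 85.6 in *Asxl1*Y588XTg *Kdm6b*Δ/+. The *Asxl1*Y588XTg libraries were above those of each of the other genotypes. Against *Asxl1*Y588XTg, *Asxl1*Y588XTg *Kdm6b*Δ/+ had a log2 fold change of −0.56 ± 0.21 that did not pass the test (unadjusted p = 0.0210, adjusted p = 0.221, edgeR), in a comparison that called 1.74% of all genes tested and none of the 10. *Bbc3*, which encodes the BH3-only protein PUMA (chromosome 7, 16308393 to 16318205, plus strand), had 111, 92.6, and 60.8 in *Asxl1*Y588XTg and 64.0, 78.7, and 65.2 in WT, with overlap. Its interval in the independent comparison ran from −0.54 to 0.44, at a depth of 56 to 110 reads per library. Differences within that interval, in either direction, remain compatible with these values.

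*Ccng1*, a cyclin G gene and p53 target (chromosome 11, 40748552 to 40755311, minus strand), averaged 1964 ± 93.7 normalized counts in WT, 2062 ± 71.8 in *Kdm6b*Δ/+, 1821 ± 152 in *Asxl1*Y588XTg, and 1954 ± 215 in *Asxl1*Y588XTg *Kdm6b*Δ/+. Its value in the independent comparison was −0.08 ± 0.08, with an interval from −0.25 to 0.10. All 4 genotypes overlapped.

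**Figure D4:**
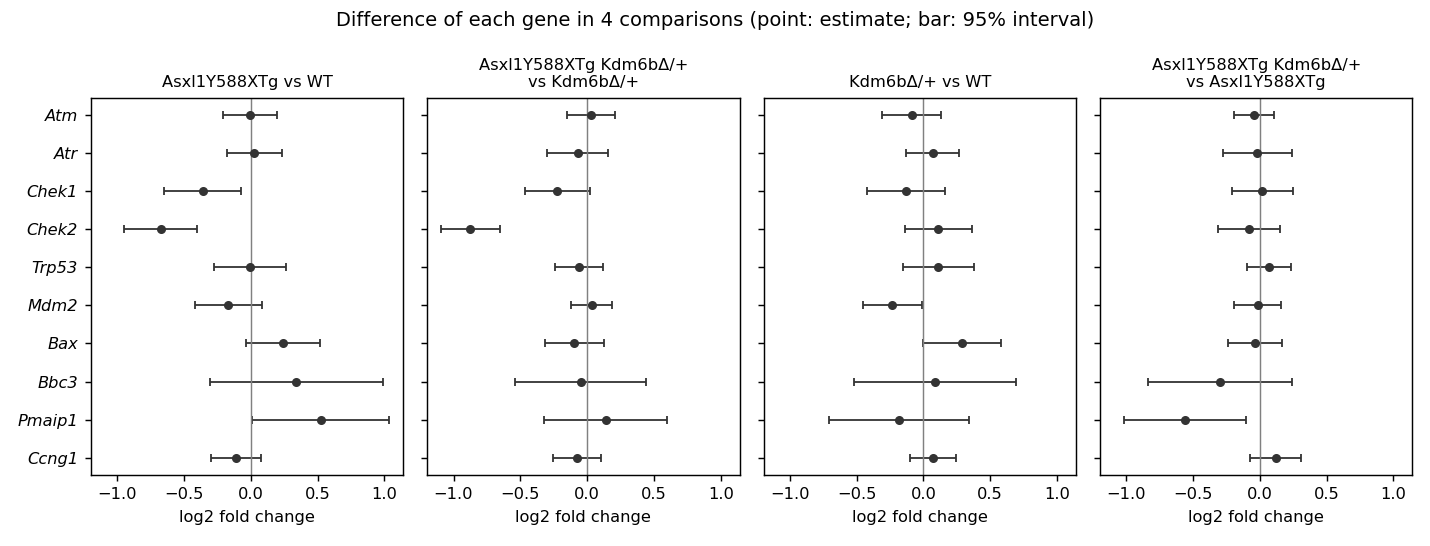
Log2 fold change (x axes) of the 10 genes in 4 comparisons, with bars for the 95% interval of edgeR's fit (n = 3 mice per genotype). *Chek2* lies at −0.67 in *Asxl1*Y588XTg against WT, which is the comparison that chose it, and at −0.87 in *Asxl1*Y588XTg *Kdm6b*Δ/+ against *Kdm6b*Δ/+. The other 9 genes lie between −0.22 and 0.14 in the latter.

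In the independent comparison the other 9 genes ran from −0.22 to 0.14 on the log2 scale with a median of −0.06, beside a median of 0.00 over all genes tested. None of them had an unadjusted p under 0.05, where 12.2% of all genes tested did. In *Kdm6b*Δ/+ against WT none of the 10 was called by edgeR or DESeq2, and 0.0948% of all genes tested were called. Of the 10, *Mdm2* had an unadjusted p under 0.05, beside 3.49% of all genes. In *Asxl1*Y588XTg *Kdm6b*Δ/+ against *Asxl1*Y588XTg neither tool called any of the 10, and *Pmaip1* had an unadjusted p under 0.05, beside 15.4% of all genes. Against WT, the mice with both alleles had *Chek2* alone called lower, beside 0.0695% of all genes tested, and this value shares the WT libraries of the choosing comparison. This call was lost with a term for Y-linked transcripts (adjusted p = 0.877, edgeR), without WT replicate 3, and without any of the *Asxl1*Y588XTg *Kdm6b*Δ/+ libraries, and the count of all genes called lower ran from 0 to 50 under the alternatives. For the difference between the 2 effects of the deletion neither tool called any of the 10, and 0.0126% of all genes tested were called. Of the 10, *Bax* had an unadjusted p under 0.05, beside 6.87% of all genes. Except for the independent comparison, these comparisons share libraries with the choosing one.

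Per kilobase of exon, *Trp53* had the highest level of the 10 genes, with a median of 1357 normalized counts per kb over the 12 libraries. *Ccng1* followed at 564, *Mdm2* at 441, and *Bax* at 299.6, and their ranges overlapped only for *Ccng1*, from 477 to 617 per kb, and *Mdm2*, from 401 to 557. *Chek2* at 191 and *Chek1* at 177 came next. Their ranges overlapped, since *Chek2* ran from 129 to 270 per kb and *Chek1* from 151 to 239.7. *Atr* at 138 and *Atm* at 133 also overlapped. *Pmaip1* at 40.7 and *Bbc3* at 35.8, both genes of induced cell death, were the lowest. In WT, *Chek2* averaged 241 ± 25.9 per kb and *Chek1* 218 ± 38.0, whereas in *Asxl1*Y588XTg *Chek2* averaged 151 ± 11.1 and *Chek1* 170.0 ± 2.52.

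Other genes of the pathway were read from lists written from general knowledge, with the 10 genes left out. In the list of double-strand break signalling and repair, 0 of 35 genes were called by edgeR in each of the 6 comparisons. In the independent comparison its median was −0.09, with 26 of 35 genes lower, 3 of them at an unadjusted p under 0.05, which 12.2% of all genes tested had. In the list of the ATR and CHK1 pathway, 0 of 18 genes were called in that comparison, 16 were lower, 4 of these with an unadjusted p under 0.05 beside the same 12.2%, and the median was −0.10. The 3 RPA subunit genes were among those 4, with *Rpa3* at −0.23 ± 0.10 (adjusted p = 0.372).

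In *Asxl1*Y588XTg against WT these medians were −0.06 and −0.08, beside −0.01 over all genes tested. Of 17 tested p53 regulators, 0 were called in either transgene comparison, with medians of −0.04 and 0.00. Of 22 genes of the BCL2 family and caspases, 0 were called, with medians of −0.07 and −0.02.

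S phase genes had slightly lower estimates in transgenic cells. All 24 S phase genes had a negative log2 fold change in both transgene comparisons, with medians of −0.10 and −0.14 and none called (edgeR). Those with an unadjusted p under 0.05 were 0 and 7 of 24, beside 9.35% and 12.2% of all genes tested. The summed normalized counts of these 24 genes ran from 84185 to 93247 in WT and from 82843 to 87084 in *Asxl1*Y588XTg, with overlap. They ran from 92461 to 96411 in *Kdm6b*Δ/+ and from 82239 to 87522 in *Asxl1*Y588XTg *Kdm6b*Δ/+, without overlap. For 20 genes of G2 and mitosis the sums overlapped in both comparisons, and the medians were −0.14 and −0.08. Of these 20 genes, 18 and 17 were lower, 5 and 2 of them at an unadjusted p under 0.05, and none was called. The part of cell cycle in the *Chek2* difference was not tested.

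Markers of megakaryocytes, a cell type that LK cells can hold, also separated the transgenic libraries. The summed count of 8 markers was 1192 to 1984 in WT, 1271 to 1520 in *Kdm6b*Δ/+, 2862 to 7246 in *Asxl1*Y588XTg, and 2060 to 2933 in *Asxl1*Y588XTg *Kdm6b*Δ/+, and no marker was at 0 in all libraries of a genotype. Of the 6 markers tested, 1 was called higher in each transgene comparison, beside 1.58% and 0.0569% of all genes tested, and the medians were 1.30 and 0.79. The sums of erythroid, of B cell, of neutrophil, and of monocyte markers overlapped in both transgene comparisons. In *Asxl1*Y588XTg *Kdm6b*Δ/+ against WT, where *Chek2* was also called, the sums of 10 erythroid markers did not overlap, at 7414 to 9069 and 9147 to 14727. The globin genes *Hba-a2* (−2.20 ± 0.18) and *Hbb-bt* (−1.11 ± 0.13) and *Alas2* (−1.49 ± 0.20), which encodes the erythroid enzyme of heme synthesis, were called lower there, and *Hba-a2* was also called lower in *Kdm6b*Δ/+ against WT. These 3 genes were named after their values were seen. The part of these cells in the *Chek2* difference was not tested.

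Of 16 genes of the interferon response, 0 were called in either transgene comparison. Their median was 0.64 in *Asxl1*Y588XTg against WT, with 5 higher at an unadjusted p under 0.05, and −0.55 in *Asxl1*Y588XTg *Kdm6b*Δ/+ against *Kdm6b*Δ/+, with 6 lower. Of all genes tested, 9.35% and 12.2% had such a p-value in these comparisons. Their summed counts overlapped in the first, at 3310 to 3755 in WT and 3420 to 6178 in *Asxl1*Y588XTg, where the median was 3421. They did not overlap in the second, at 3194 to 3786 in *Kdm6b*Δ/+ and 2606 to 3058 in *Asxl1*Y588XTg *Kdm6b*Δ/+. The part of the interferon response in the *Chek2* difference was not tested.

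Genes known to be activated by p53 were called in a comparison in which *Chek2* was not. Of 37 tested p53 targets, 0 were called in either transgene comparison, and their medians were 0.09 in *Asxl1*Y588XTg against WT and 0.07 in *Asxl1*Y588XTg *Kdm6b*Δ/+ against *Kdm6b*Δ/+. At an unadjusted p under 0.05, 3 were higher and 0 lower in the first, and 2 were higher and 2 lower in the second, beside 9.35% and 12.2% of all genes tested. In *Asxl1*Y588XTg *Kdm6b*Δ/+ against *Asxl1*Y588XTg, 3 of 37 were called lower and 0 higher, beside 1.59% of all genes tested that were called lower. The median was −0.09 beside −0.00 over all genes tested. By direction alone, 25 targets were lower and 12 higher. Of these, 8 and 1 had an unadjusted p under 0.05 (edgeR), beside 15.4% of all genes tested. Other lists had lower values in the same comparison. The interferon response had a median of −1.34, with 0 of 16 genes called and 9 lower at an unadjusted p under 0.05, beside 15.4% of all genes tested. Its sums did not overlap between these genotypes. Erythroid markers had a median of −0.78, with 0 of 10 called and overlapping sums. *Gata2*, a transcription factor gene of stem and progenitor cells named after its values were seen, fell by 1.02 ± 0.12 (adjusted p = 0.00686, edgeR). The part of these in the p53 target values was not tested.

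The 3 were *Ddit4*, an inhibitor of mTORC1 signalling that also responds to hypoxia and glucocorticoids, *Plk2*, a polo-like kinase gene, and *Ak1*, an adenylate kinase gene. *Ddit4* had 295, 246, and 265 normalized counts in *Asxl1*Y588XTg and 181, 156, and 148 in *Asxl1*Y588XTg *Kdm6b*Δ/+, and fell by 0.72 ± 0.13 on the log2 scale (adjusted p = 0.0261, edgeR). *Plk2* had 312, 211, and 313 against 181, 153, and 155, and fell by 0.76 ± 0.17 (adjusted p = 0.0474). *Ak1* had 123, 110, and 83.1 against 50.2, 27.0, and 51.6, and fell by 1.27 ± 0.28 (adjusted p = 0.0468). For each of the 3 genes the groups did not overlap, which with 3 against 3 libraries is a description. These calls were near the threshold. They held in 5, 4, and 3 of 13 alternatives for *Ddit4*, *Plk2*, and *Ak1*, with the fall kept in direction in all 13 and adjusted p-values up to 0.282, 0.622, and 0.458. With 1 library left out, *Ddit4* and *Plk2* were called only without the second *Asxl1*Y588XTg library and *Ak1* in no case.

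*Cdkn1a*, which encodes the cell cycle inhibitor p21 and is the classical p53 target of arrest, had 190, 158, and 181 normalized counts in WT and 178, 161, and 152 in *Kdm6b*Δ/+. It had 254, 284, and 240 in *Asxl1*Y588XTg and 221, 166, and 192 in *Asxl1*Y588XTg *Kdm6b*Δ/+. The *Asxl1*Y588XTg libraries were above those of each of the other genotypes. Against *Asxl1*Y588XTg, *Asxl1*Y588XTg *Kdm6b*Δ/+ had a value of −0.41 ± 0.14 that did not pass the test (adjusted p = 0.180, edgeR), and the value of *Asxl1*Y588XTg against WT, 0.55 ± 0.16, did not pass either. *Pmaip1* and *Cdkn1a* thus had their highest libraries in *Asxl1*Y588XTg, while *Chek2* was low in both transgenic genotypes.

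**Figure D5:**
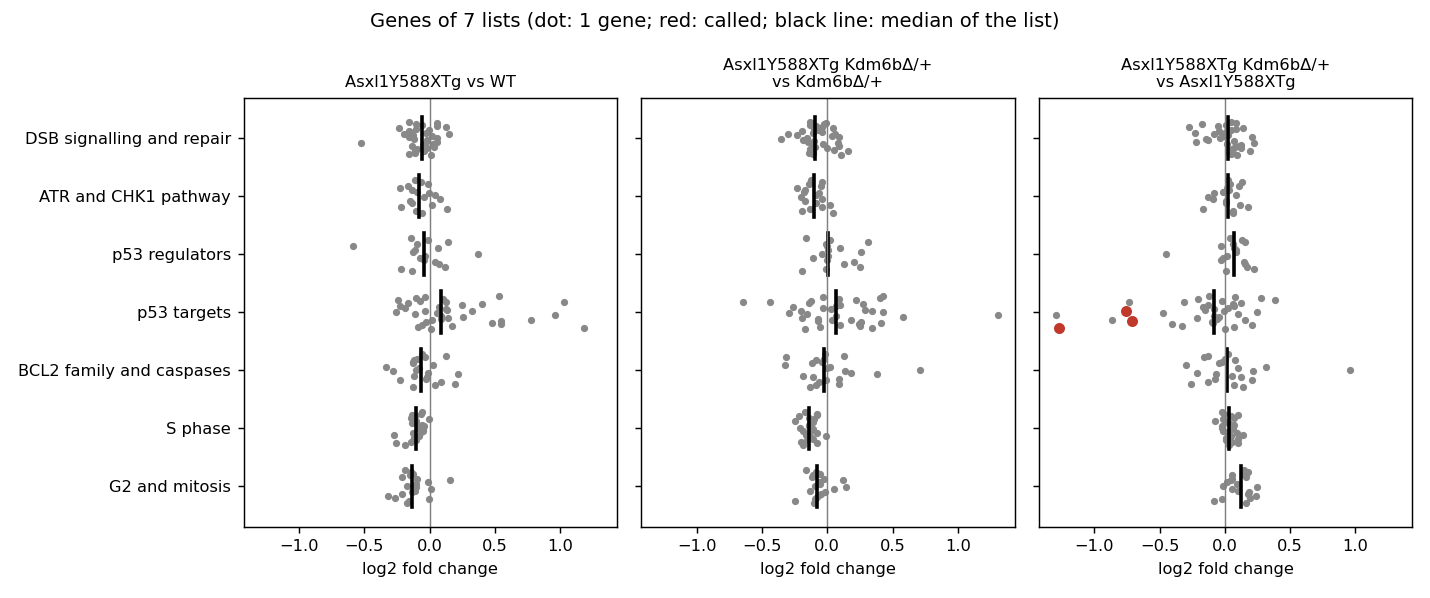
Log2 fold change (x axes) of the genes of 7 lists in 3 comparisons, with 1 dot per gene, called genes in red, and a black line at the median of each list. The only called genes are *Ddit4*, *Plk2*, and *Ak1* among p53 targets, in *Asxl1*Y588XTg *Kdm6b*Δ/+ against *Asxl1*Y588XTg.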

How the data were processed

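RNA from LK cells of individual mice was sequenced with 50 bp reads, and the labels name an NEB Ultra RNA kit where the methods name a stranded KAPA kit. Per the labels, the authors used FastQC, Trimmomatic, STAR, HTSeq, and mm10, and deposited raw counts of 55291 genes without normalization. The annotation and strand setting are not given in the sources used here. In R 4.3.3, edgeR 4.0.16 filterByExpr with the 4 genotypes kept 15825 genes. Normalized counts are counts over the TMM-scaled library size times the average size. The 6 libraries of a comparison (all 12 for the difference of effects) were fitted with edgeR's robust quasi-likelihood test, and p-values were adjusted by Benjamini-Hochberg over the 15825 genes. Calls needed an adjusted p under 0.05 and a fold above 1.5. DESeq2 1.42.0 was an alternative, beside RLE scaling, 4 genotypes in 1 fit, no filter, a mean count of at least 50, a replicate block, a term for Y-linked transcripts, and each library left out. The steps were tested on simulated data.

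Between replicates the chi-square per gene was 7.46 to 31.6, so replicates differed beyond counting noise. Same-numbered libraries were treated as unpaired. The r of their deviations was −0.12 to 0.08 over 18 pairs, which with 3 libraries per genotype cannot exclude a shared batch. The 10 genes and the lists were chosen with earlier results of these data known. Genes named were the 10 genes, called genes of the pathway lists with *Cdkn1a*, the 5 genes most like *Chek2*, neighbours within 500 kb, *Kdm6b* and *Asxl1*, and genes overlapping the 10. Positions and exon lengths come from GENCODE vM21, which held 96.4% of the symbols. Exon length covers protein-coding transcripts. All 10 genes were found by symbol.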

Additional observations from a re-analysis of the deposited data

How the results depend on the processing

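The fall of *Chek2* in *Asxl1*Y588XTg *Kdm6b*Δ/+ against *Kdm6b*Δ/+ passed the test in 14 of 14 alternatives, which include the fits with each of the 6 libraries left out. Its log2 fold changes ran from −0.94 to −0.81 and its adjusted p-values from 6.43e-11 to 0.0288 (edgeR and DESeq2). With the replicate block it was −0.87 (adjusted p = 0.0230, edgeR). In *Asxl1*Y588XTg against WT, which chose *Chek2*, the count of the 10 genes called was 1, became 0 with the replicate block, and ranged from 0 to 1 with each library left out. It became 0 without WT replicate 3 and without each *Asxl1*Y588XTg library, where *Chek2* was −0.58, −0.67, −0.61, and −0.72. In *Asxl1*Y588XTg *Kdm6b*Δ/+ against WT the count was 1, became 0 with the term for Y-linked transcripts, and ranged from 0 to 1 with each library left out, becoming 0 without WT replicate 3 and without each *Asxl1*Y588XTg *Kdm6b*Δ/+ library. Fewer samples enter these fits. Of 756 values of the other 9 genes, none was called, 53 changed sign around 0, and 14 moved by more than 1 SE, among them *Chek1* in *Asxl1*Y588XTg against WT, at −0.50 without WT replicate 2. *Chek2* changed sign in 0 of 84. Counts over all genes moved more: in *Asxl1*Y588XTg against WT, 2 to 42 genes were called lower (main 5), in *Asxl1*Y588XTg *Kdm6b*Δ/+ against *Kdm6b*Δ/+ 1 to 30 (main 6), and in *Asxl1*Y588XTg *Kdm6b*Δ/+ against *Asxl1*Y588XTg 43 to 665 (main 252), and in *Asxl1*Y588XTg *Kdm6b*Δ/+ against WT 0 to 50 (main 11). Called higher were 96 to 585 (main 250) and 1 to 177 (main 9) in the 2 transgene comparisons. In *Asxl1*Y588XTg *Kdm6b*Δ/+ against *Asxl1*Y588XTg, *Ddit4*, *Plk2*, and *Ak1* were not called with the replicate block, with all 4 genotypes in 1 fit, or with the Y-linked term. *Rps4l* was called in 11 of 13 and 12 of 14 alternatives of the transgene comparisons, not without WT replicate 3 or *Asxl1*Y588XTg replicate 3 in the first (log2 fold change −2.03 to −1.56), nor with the Y-linked term or without *Asxl1*Y588XTg *Kdm6b*Δ/+ replicate 1 in the second (−1.82 to −1.56). *Cdkn1a*, *Rpa3*, *Hscb*, *Ttc28*, and *Ulk1* were called in none of 84 values each. DESeq2 was not run for the lists; of 960 list medians 67 moved by more than the spread between replicates. The fit to libraries with Y-linked transcripts was the 1 alternative chosen after seeing the data, and it repeats the fit without *Kdm6b*Δ/+ replicate 2.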
